A study of Mus musculus with 14 samples.

Results

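The cytosolic heat shock genes are 10 genes of the deposited count table, taken by symbol from 52459 genes in all: Hspa1a, Hspa1b, Hspa8, Hsph1, Dnaja1, Dnajb1, Hspb1, Hsp90aa1, Hsp90ab1 and Hsf1. Their RNA was measured by sequencing in 7 libraries of beta-galactosidase-positive islet cells (positive) and in 7 libraries of beta-galactosidase-negative islet cells (negative), numbered 1 to 7 in each group. All cells came from dispersed pancreatic islets of male C57BL/6J mice aged 7 months, an inbred strain, with no genetic change or treatment named in the labels. Cells had been sorted by the activity of beta-galactosidase at acidic pH, a lysosomal activity often read as a sign of senescence, and the sort did not select for a cell type. The labels do not say whether a numbered library came from 1 animal or a pool, so p-values rest on the variation among the 14 libraries alone, part of which may be technical. All 10 genes passed the filter on low counts and were tested among 16350 genes.

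Heat shock proteins are chaperones that keep other proteins folded. HSP70 proteins bind unfolded stretches of a protein with the help of J-domain proteins, which deliver the client and start the ATP cycle, and of HSP110 proteins, which exchange the nucleotide. HSP90 takes over partly folded clients, among them kinases and steroid receptors, and small heat shock proteins hold damaged proteins without using ATP. The transcription factor HSF1, when freed from chaperones by damaged protein, forms trimers that bind heat shock elements, which are inverted repeats of the unit GAA. Hspa1a and Hspa1b are the classic strongly inducible targets, whereas Hspa8 and Hsp90ab1 are expressed at high level in unstressed cells. In islets, whose beta cells make large amounts of a secreted hormone, folding capacity in the endoplasmic reticulum has been studied most. The cytosolic genes described here serve the other compartment.

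RefSeq promoter windows on GRCm38.p6, from 250 bases before to 50 after a gene's start, matched 6 of the 10 genes, and those of the genes whose level varied most among libraries are shown here in the direction of transcription. Capitals mark a pair of inverted units, searched as GAANNTTC or TTCNNGAA, each of which reads the same on both strands. Hspa1a lies on the minus strand at chr17:34972107-34972406, Hspa1b at chr17:34959189-34959488 (minus), Hsph1 at chr5:149636287-149636586 (minus) and Hspb1 at chr5:135887669-135887968 (plus).
Hspa1a: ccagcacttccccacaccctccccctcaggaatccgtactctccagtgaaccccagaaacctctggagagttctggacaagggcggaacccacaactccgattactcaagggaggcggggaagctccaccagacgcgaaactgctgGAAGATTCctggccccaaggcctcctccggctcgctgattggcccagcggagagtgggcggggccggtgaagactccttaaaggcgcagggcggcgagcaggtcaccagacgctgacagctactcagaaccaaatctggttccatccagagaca
Hspa1b: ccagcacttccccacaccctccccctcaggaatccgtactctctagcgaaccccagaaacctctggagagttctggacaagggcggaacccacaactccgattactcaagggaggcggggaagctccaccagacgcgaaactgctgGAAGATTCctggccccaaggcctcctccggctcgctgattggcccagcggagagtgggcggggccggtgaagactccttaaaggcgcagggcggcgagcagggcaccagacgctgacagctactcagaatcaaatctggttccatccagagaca
Hsph1: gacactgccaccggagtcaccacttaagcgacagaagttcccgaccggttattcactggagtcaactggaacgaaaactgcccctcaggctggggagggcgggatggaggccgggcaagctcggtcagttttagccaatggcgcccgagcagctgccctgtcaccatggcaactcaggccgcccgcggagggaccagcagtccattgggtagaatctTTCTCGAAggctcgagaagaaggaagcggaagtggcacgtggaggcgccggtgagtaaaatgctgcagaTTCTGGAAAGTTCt
Hspb1: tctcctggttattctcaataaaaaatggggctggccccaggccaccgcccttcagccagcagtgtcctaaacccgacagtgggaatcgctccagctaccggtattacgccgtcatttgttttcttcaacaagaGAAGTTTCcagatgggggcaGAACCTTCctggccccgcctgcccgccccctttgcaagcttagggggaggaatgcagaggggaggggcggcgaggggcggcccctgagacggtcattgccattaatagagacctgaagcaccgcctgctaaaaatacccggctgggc

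The windows of Hspa1a and Hspa1b are identical at 296 of 300 aligned bases, and in each the marked pair starts 104 bases before the start site. The Hsph1 window shown holds 1 pair starting 33 bases before its start site. Starting 37 bases after that site it holds a run of 3 alternating units, in which 2 pairs share the middle unit. In the other window listed for Hsph1, at chr5:149636266-149636565 (minus), the same pair starts 54 bases before the start site and the run 16 bases after it. Hspb1 holds a pair starting 117 and another starting 97 bases before its start site. Of 3 windows listed for Dnaja1, the one at chr4:40722218-40722517 (plus) holds a pair 124 bases before the start, and neither of the windows listed for Dnajb1 holds one. Among all 32851 windows of the table, 15.1% hold a pair and 0.603% a run of 3 units. These matches describe the letters in the window and were not measured as binding sites.

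Total counts were 15585779 to 24577025 reads in positive and 11060144 to 23045934 reads in negative libraries. Beta cell transcripts made up most of the marker RNA, with Ins2 at 70600 CPM (reads of the gene per 1000000 counted, scaled by TMM, the trimmed mean of M values) in positive and 82100 CPM in negative cells. Macrophage markers summed to 96.9 to 874 CPM in positive and 18.5 to 28.0 CPM in negative libraries, and endothelial markers to 423 to 1420 CPM in positive and 8.43 to 79.2 CPM in negative libraries. Of the 20 macrophage markers 13, and of the 18 endothelial markers 7, had 0 counts in at least 1 library. In bulk libraries fewer cells of a type and less RNA per cell cannot be told apart. For 6 of the 10 heat shock genes, the 4 libraries numbered 1 and 2, in both groups, were the 4 highest, as the values below show. For Hspa8, Dnaja1, Hsp90aa1 and Hsf1 they did not part from the rest. The 10 genes together took 0.923% and 0.948% of all counts in positive 1 and 2 and 0.716% and 0.833% in negative 1 and 2. In the other libraries they took 0.424% to 0.481% (positive) and 0.414% to 0.573% (negative).

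**Figure D1:**
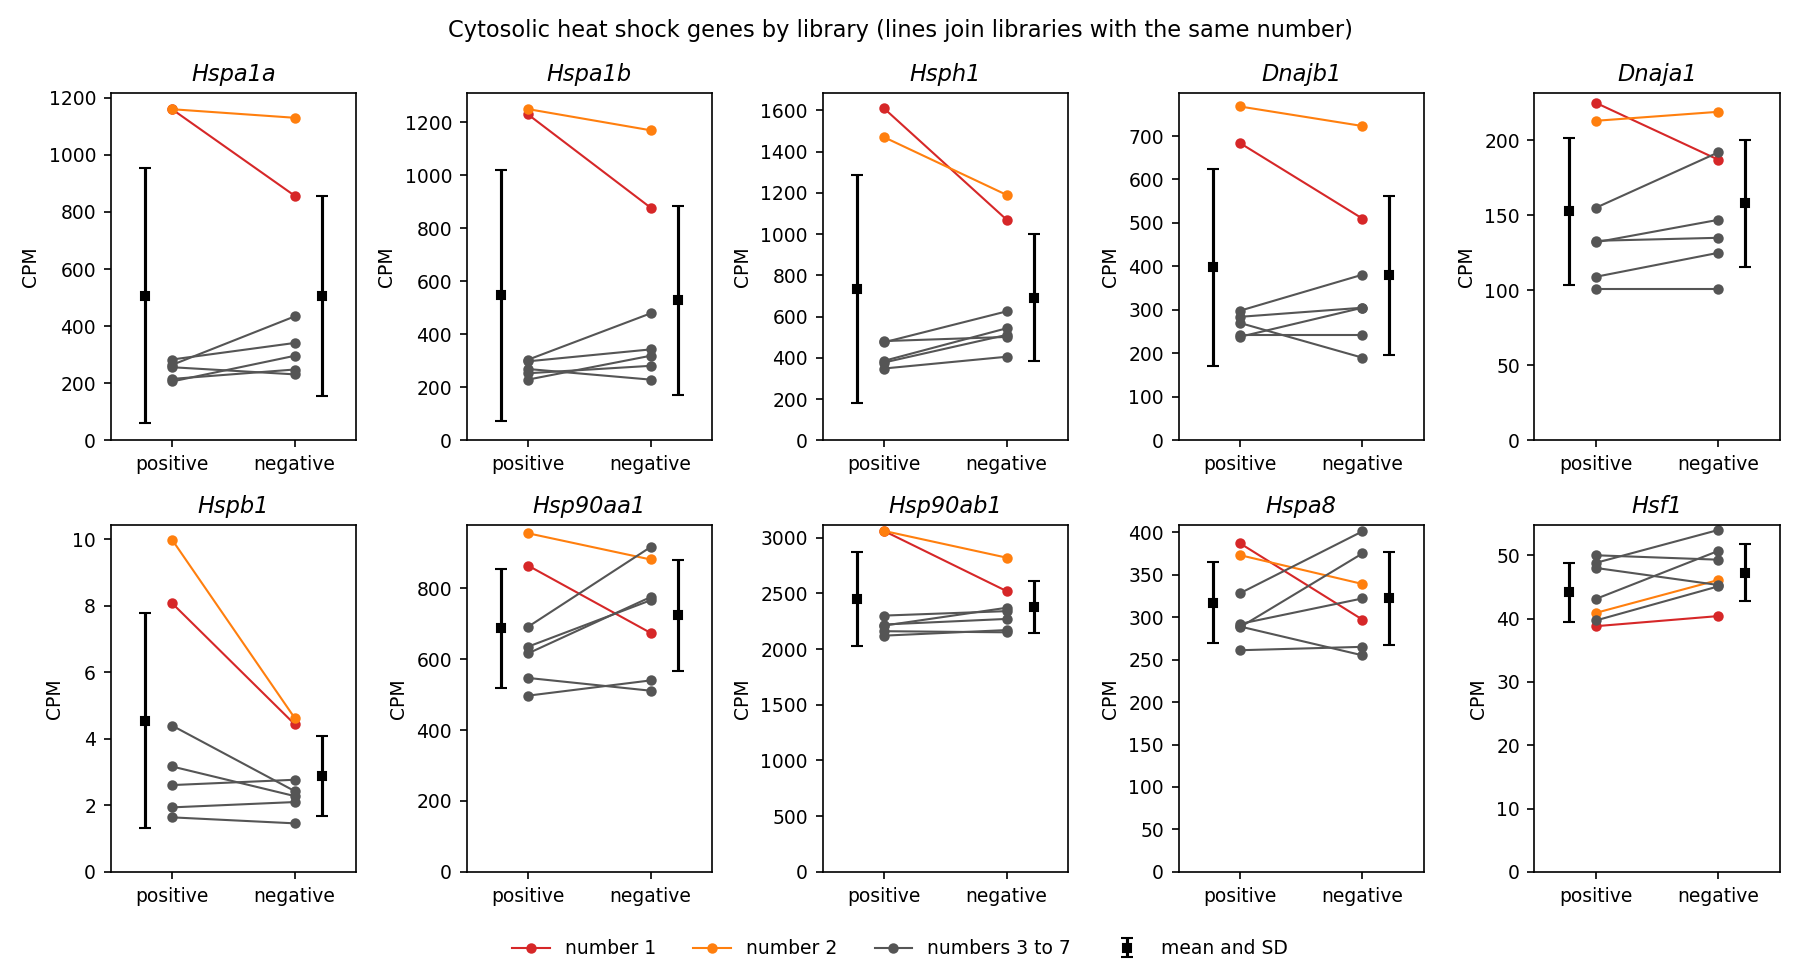
CPM (vertical axes, linear) of each gene in the 7 positive and the 7 negative libraries, with lines joining libraries of the same number and squares giving mean and SD (n = 7 each). Hspa1a, Hspa1b, Hsph1 and Dnajb1 are highest in the libraries numbered 1 (red) and 2 (orange) in both groups, and positive and negative means are close for all genes but Hspb1.

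The inducible HSP70 genes swung widely among libraries, 5.63-fold for Hspa1a and 5.46-fold for Hspa1b between the highest and the lowest library, and had no called difference between the groups. Hspa1a ranged from 206 to 1160 CPM (median 264) in positive and from 231 to 1130 CPM (median 341) in negative libraries, so the groups overlapped over nearly their whole range. Positive 1 and 2 had 1160 CPM each and negative 1 and 2 had 857 and 1130 CPM, while the other 10 libraries lay at 206 to 434 CPM. Hspa1b followed the same order, with 1230 and 1250 CPM in positive 1 and 2, 878 and 1170 CPM in negative 1 and 2, and 229 to 479 CPM elsewhere. Among those other libraries negative 5 was the highest for both genes. Hspa1a averaged 505 ± 446 CPM in positive and 506 ± 349 CPM in negative cells (SD, n = 7 each), and the log2 fold change was 0.00 ± 0.54 (SE, 95% interval −1.17 to 1.17). Hspa1b had 548 ± 474 CPM in positive and 529 ± 358 CPM in negative cells, a log2 fold change of 0.05 ± 0.53 (−1.09 to 1.19). With the replicate number as a block the intervals narrowed to −0.45 to 0.14 for Hspa1a and −0.39 to 0.20 for Hspa1b, neither called (adjusted p = 0.442 and 0.648). Within pairs the positive library was higher in 3 of 7 for each gene. For Hspa1a the pair difference ran from 0.43 (log2) in pair 1 to −0.72 in pair 5.

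Hspa1a (ENSMUSG00000091971.3; chromosome 17, 34969190 to 34972156, minus strand) and Hspa1b (ENSMUSG00000090877.3; chromosome 17, 34956436 to 34959238, minus strand; GRCm38, GENCODE M21) lie 9951 bases apart and encode nearly the same protein. Of the 50-base words in their transcripts, the length of a read here, 58.8% of those of Hspa1a and 62.3% of those of Hspa1b occur in the other gene, so how reads were split between them is uncertain. The ratio of Hspa1b to Hspa1a counts was 1.05 to 1.18 in positive and 0.994 to 1.13 in negative libraries. With the counts of both summed into 1 row the log2 fold change was 0.03 ± 0.53 (adjusted p = 0.986). The predicted gene Gm20481 overlaps Hspa1a on the opposite strand and held at most 581 counts in a library.

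Hsph1, the HSP110 exchange factor of HSP70, and the J-domain proteins Dnajb1 and Dnaja1 were also high in those libraries, with folds between the highest and the lowest library of 4.62, 4.03 and 2.23 in that order. Hsph1 (chromosome 5, 149614287 to 149636376) had 1610 and 1470 CPM in positive 1 and 2 and 1070 and 1190 CPM in negative 1 and 2, against 348 to 625 CPM in the other 10 libraries. Its group values were 348 to 1610 CPM (median 475) in positive and 405 to 1190 CPM (median 543) in negative cells, a log2 fold change of 0.08 ± 0.42 (−0.82 to 0.98, adjusted p = 0.938). Dnajb1 (chromosome 8, 83608193 to 83612653), the J protein that pairs with inducible HSP70, had 684 and 768 CPM in positive 1 and 2 and 510 and 723 CPM in negative 1 and 2. The other 10 libraries lay at 190 to 381 CPM, and the difference between the groups was 0.07 ± 0.36 (−0.70 to 0.84, adjusted p = 0.942). Dnaja1 (chromosome 4, 40722150 to 40737149), a farnesylated J protein, ranged from 101 to 225 CPM (median 133) in positive and from 101 to 219 CPM (median 147) in negative libraries, and its difference was −0.05 ± 0.21 (−0.49 to 0.39, adjusted p = 0.929). For Dnaja1 negative 5 (192 CPM) stood above negative 1 (187 CPM), so the 4 libraries did not part from the rest. Smu1 overlaps the end of Dnaja1 on the opposite strand, and without the strand setting their reads cannot be told apart there.

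Hspb1, which encodes the small heat shock protein HSP25 of the mouse, was the only one of the 10 with a group difference of more than 0.10 on the log2 scale, and it was the scarcest. Its counts were 32 to 213 in positive and 22 to 104 in negative libraries. Positive 1 and 2 had 8.08 and 9.99 CPM and the other positive libraries 1.64 to 4.40 CPM. Negative 1 and 2 had 4.44 and 4.63 CPM and the other negative libraries 1.46 to 2.77 CPM, so the groups overlapped. Means were 4.55 ± 3.24 CPM in positive and 2.87 ± 1.20 CPM in negative cells, a log2 fold change of 0.67 ± 0.41 (−0.19 to 1.53) that was not called (adjusted p = 0.371). It rested in part on the libraries numbered 1 and 2, since it was 0.33 without positive 2 and 0.31 ± 0.27 without all 4 (adjusted p = 0.561). With the replicate number as a block it was 0.52 ± 0.17 (0.16 to 0.89) and was called just under the threshold (adjusted p = 0.0486, higher in 5 of 7 pairs). The pair differences were 0.85 and 1.09 in pairs 1 and 2, 0.83 and 0.46 in pairs 6 and 7, and −0.11 to 0.16 in pairs 3 to 5. Pairs 6 and 7 are those with the highest sums of endothelial markers, 1420 and 1360 CPM in the positive and 79.2 and 72.1 CPM in the negative library. Their macrophage sums were the highest as well, 874 and 612 CPM in the positive and 27.0 and 28.0 CPM in the negative library. The part of endothelial or macrophage RNA in Hspb1 was not tested. Its processed pseudogene Hsp25-ps1 (chromosome 13) shares 86.6% of its 50-base words with Hspb1 and held 33.9% to 64.3% of the reads of both. With the pseudogene's counts added, the difference was 0.61 ± 0.47 (adjusted p = 0.513), and 0.46 with the block (adjusted p = 0.0527), so that call was lost.

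The HSP90 genes and the constitutive HSP70 gene Hspa8 varied less, and Hsf1 did not follow the others. Hsp90ab1 (chromosome 17, 45567775 to 45573271), the constitutive cytosolic HSP90, had 3060 CPM in each of positive 1 and 2 and 2120 to 2300 CPM in the other positive libraries, with 2520 and 2820 CPM in negative 1 and 2 and 2150 to 2370 CPM in the other negative ones. Hsp90aa1 (chromosome 12, 110690605 to 110702728), the inducible cytosolic HSP90, ranged from 497 to 955 CPM (median 635) in positive and from 511 to 916 CPM (median 766) in negative libraries. Hspa8 (chromosome 9, 40800984 to 40810087) ranged from 261 to 387 CPM (median 292) in positive and from 255 to 401 CPM (median 322) in negative libraries, with negative 5 highest. Group differences on the log2 scale were 0.04 ± 0.10 (−0.18 to 0.26) for Hsp90ab1, −0.08 ± 0.16 (−0.42 to 0.27) for Hsp90aa1 and −0.02 ± 0.11 (−0.26 to 0.22) for Hspa8. The ratio of Hspa1a and Hspa1b counts to Hspa8 counts was 6.17 and 6.46 in positive 1 and 2 and 5.84 and 6.80 in negative 1 and 2, against 1.51 to 2.23 in the other positive and 1.64 to 2.58 in the other negative libraries. With the reads of the Hspa8 pseudogene copies described below added to Hspa8, the ratio was 1.32 and 1.46 in positive 1 and 2 and 1.33 and 1.66 in negative 1 and 2, and below 1 in the others (0.353 to 0.492 in positive, 0.405 to 0.647 in negative). Hsf1 (chromosome 15, 76477422 to 76501913), the transcription factor of the response, which is controlled mainly through its protein, averaged 44.2 ± 4.65 CPM in positive and 47.3 ± 4.44 CPM in negative cells (−0.10 ± 0.08, −0.26 to 0.07, adjusted p = 0.519). It was lowest in positive 1 (38.8 CPM) and had 40.9 CPM in positive 2 and 40.4 and 46.1 CPM in negative 1 and 2, within the 39.7 to 54.0 CPM of the other libraries but for positive 1.

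**Figure D2:**
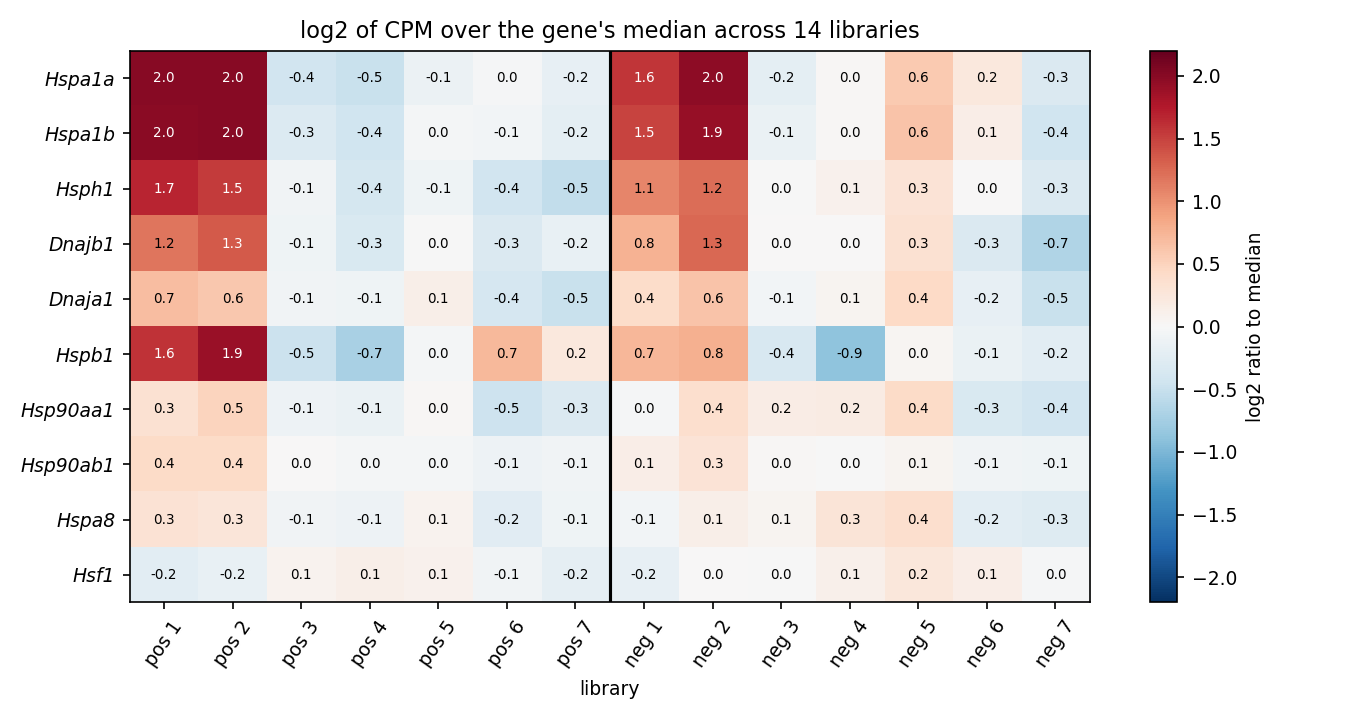
Log2 ratio of each gene's CPM (rows) to its median over the 14 libraries (columns, positive left of the line and negative right). The libraries numbered 1 and 2 are high for 6 genes in both groups, with Hspa1a and Hspa1b furthest from their medians, and Hsf1 is near its median in every library.

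Of the 10 heat shock genes 0 were called between positive and negative cells by edgeR's quasi-likelihood test at an adjusted p below 0.05, against 8.03% of the 16350 genes tested (6.40% higher and 1.63% lower). At an unadjusted p below 0.05 the count was 0 as well, and DESeq2 called 0. The median log2 fold change of the 10 genes was 0.02, and that of all genes tested was 0.00. For none of the 10 were the groups' CPM ranges apart. With the replicate number as a block 1 gene was called, Hspb1, against 19.6% of all genes (11.8% higher). Without the 4 libraries numbered 1 and 2, 0 were called, against 5.57% of 16146 genes. In the fit of group alone the intervals differed widely between genes. Those of Hsp90ab1, Hspa8 and Hsf1 leave room for at most 0.26 (log2) in either direction, whereas those of Hspa1a and Hspa1b reach beyond 1. With the replicate number as a block they were −0.45 to 0.14 for Hspa1a and −0.39 to 0.20 for Hspa1b, so 1 was outside both. Without the libraries numbered 1 and 2 the difference of Hspa1a was −0.34 ± 0.17 (−0.71 to 0.02, adjusted p = 0.269). That of Hsph1 was −0.32 ± 0.12 (−0.58 to −0.07, unadjusted p = 0.0181, adjusted p = 0.142).

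**Figure D3:**
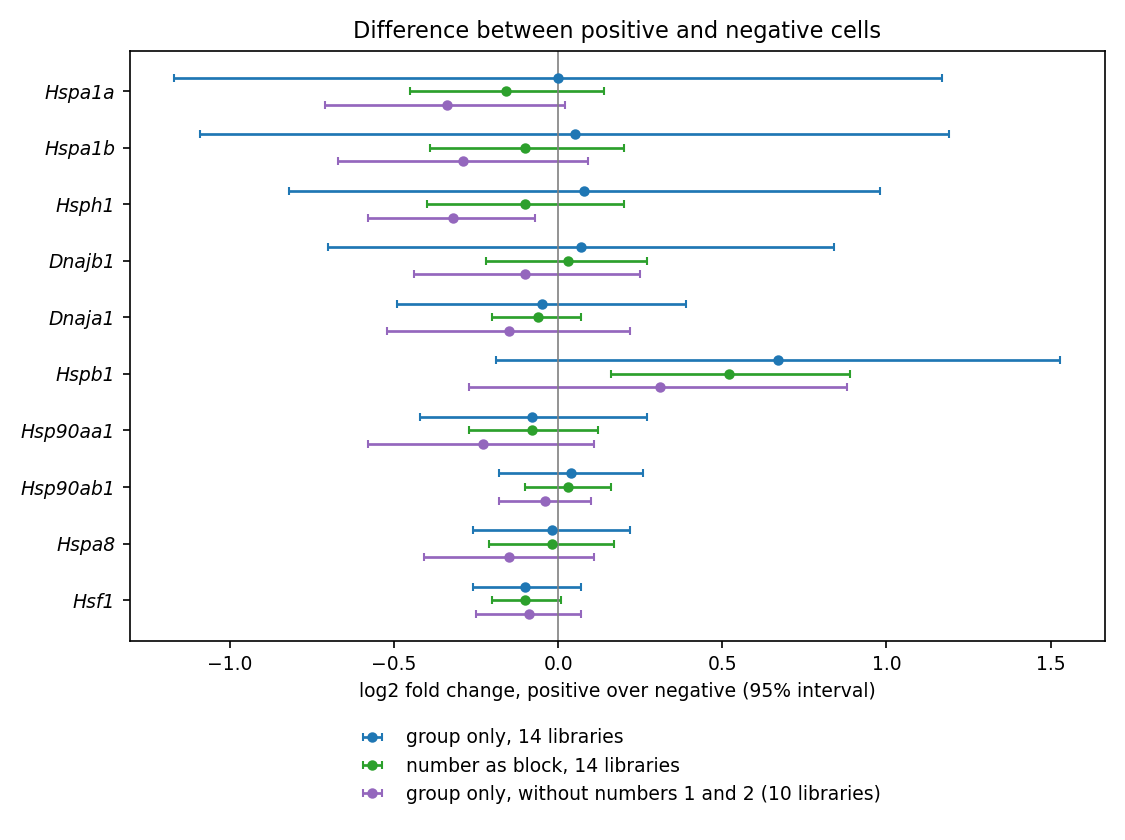
Log2 fold change of each gene, positive over negative, with 95% intervals, in the fit of group alone with 14 libraries (blue), with the replicate number as a block (green) and of group alone without the 4 libraries numbered 1 and 2 (purple). Intervals of Hspa1a, Hspa1b, Hsph1 and Dnajb1 narrow when the number is in the fit or those libraries are left out, and only the blocked interval of Hspb1 and the last interval of Hsph1 leave out 0.

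Differences between replicate numbers, in contrast, were large for most of these genes. A fit with group and replicate number was tested for its 6 number terms across all 16350 genes, a test chosen after the libraries numbered 1 and 2 had been seen to stand apart. Of the 10 genes 8 were called, against 21.0% of all genes. They were Dnaja1 (F = 26.7, adjusted p = 0.000625), Hspa1a (F = 38.5, adjusted p = 0.000852), Hspa1b (F = 36.7), Dnajb1 (F = 23.4), Hsph1 (F = 21.4), Hspb1 (F = 14.2), Hsp90aa1 (F = 6.67, adjusted p = 0.0270) and Hsp90ab1 (F = 5.54, adjusted p = 0.0382). Hspa8 (F = 2.64, adjusted p = 0.177) and Hsf1 (F = 4.44, adjusted p = 0.0616) were not called. By F, Hspa1a and Hspa1b ranked in the top 0.330% and 0.410% of the genes tested. Without the libraries numbered 1 and 2 the test called 2 of the 10, Dnaja1 (F = 26.6, adjusted p = 0.00646) and Hsp90aa1 (F = 11.5, adjusted p = 0.0414), against 3.74% of genes. For 6 of the 10 genes the 4 highest of 14 libraries were exactly those numbered 1 and 2, a pattern that 336 of all genes tested (2.06%) had. Since it was noticed on these 10 genes, its count is a description and supports nothing further. The 4 lowest libraries were those numbered 1 and 2 for 0 of the 10 and for 5.02% of all genes.

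Other RNA differed between the numbers too, and its part in the heat shock values was not tested. Acinar markers, genes of digestive enzymes, summed to 983, 249 and 264 CPM in positive 1, 2 and 5 and to 39.4 to 81.0 CPM in the other positive libraries. In negative libraries they summed to 1580, 1090 and 1640 CPM in 1, 2 and 5 and to 166 to 360 CPM in the others. Positive and negative 5 were also the highest of the libraries numbered 3 to 7 for Dnaja1 in their groups, at 155 and 192 CPM. For Hspa1a negative 5 was the highest of these in its group (434 CPM), but positive 5 (264 CPM) was below positive 6 (283 CPM). With acinar sums near those of positive and negative 5, positive 2 and negative 1 had 1160 and 857 CPM of Hspa1a. Beta cell markers summed to 130000 and 125000 CPM in positive 1 and 2 and to 144000 and 155000 CPM in negative 1 and 2, against 99600 to 127000 CPM in the other positive and 104000 to 139000 CPM in the other negative libraries. Macrophage markers summed to 135 and 141 CPM in positive 1 and 2, within the range of the other positive libraries. For replicate number 13 of 16 acinar markers (81.2%) and 13 of 18 macrophage markers tested (72.2%) were called, near the 80.0% of the heat shock genes. The other marker lists had 0.0% to 47.1% called. For 0 genes of any marker list were the libraries numbered 1 and 2 the 4 highest. Of the remaining lists, ductal markers summed to 1930 to 2750 CPM in positive and 1750 to 2250 CPM in negative libraries, alpha cell markers to 3410 to 27400 CPM in positive and 10400 to 28000 CPM in negative, delta and PP cell markers to 1180 to 7200 CPM in positive and 1300 to 3760 CPM in negative, and pericyte and fibroblast markers to 53.1 to 253 CPM in positive and 16.3 to 1470 CPM in negative libraries.

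Several of these transcripts have processed pseudogenes, intronless copies of the messenger RNA elsewhere in the genome, whose rows held many reads. For Hspa8 the copies Gm15459 (chromosome 5), Gm8355 (chromosome 10) and Gm6210 (chromosome 6) held 71.6% to 78.5% of the reads of the gene and its copies together, and Gm15459, which shares 86.8% of its 50-base words with Hspa8, had 951 ± 177 CPM in positive and 869 ± 57.1 CPM in negative cells. For Hsp90aa1 the copies Gm12346 (chromosome 11), Gm5844 and Gm5511 held 49.3% to 60.8%, and for Dnaja1 the copies Gm15542, Gm7816 and Gm6335 held 61.1% to 71.3%. A 50-base read inside a shared stretch cannot be assigned to either, and the setting for such reads is not given in the sources used here. With the copies' counts added, Hspa8 had 1380 ± 239 CPM in positive and 1300 ± 115 CPM in negative cells, Hsp90aa1 1630 ± 438 CPM in positive and 1600 ± 282 CPM in negative cells, and Dnaja1 487 ± 156 CPM in positive and 465 ± 76.1 CPM in negative cells (SD, n = 7 each). The group differences then turned from below to above 0, at 0.09 ± 0.10, 0.03 ± 0.16 and 0.07 ± 0.17, and none was called (adjusted p = 0.650, 0.944 and 0.872). Of the 10 genes 8 were still called for replicate number.

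Levels of different genes were compared per kilobase of exon (RPKM, computed from the CPM and the summed exon length in GENCODE M21), which understates genes with many alternative exons. Hsp90ab1 was the highest in every library, at 815 ± 140 RPKM in positive and 793 ± 78.6 RPKM in negative cells. By their own rows Hspa1b, Hsp90aa1 and Hspa1a came next at means of 170 to 195 RPKM in positive and 170 to 189 RPKM in negative cells, with overlapping ranges. Hspa1b stood above Hsp90aa1 in only 2 of 7 libraries of each group. With the pseudogene copies added Hsp90aa1 stood second in both groups, at 414 ± 111 RPKM in positive and 406 ± 71.8 RPKM in negative cells, and Hspa8 next in mean, at 322 ± 55.6 RPKM in positive and 302 ± 26.6 RPKM in negative cells. Hspa8 then stood above Hspa1b in 5 of 7 libraries of each group. Dnajb1 (124 and 118 RPKM in positive and negative cells) and Hsph1 (101 and 95.4 RPKM) followed with overlapping ranges, then Hspa8 by its own row (73.7 and 74.9 RPKM), although Hsph1 stood above Hspa8 in only 2 of 7 positive and 3 of 7 negative libraries, and Dnaja1 (17.7 and 18.3 RPKM by its own row). Hsf1 (6.22 and 6.66 RPKM) and Hspb1 (4.41 and 2.79 RPKM) were lowest, in that order in 5 of 7 positive and 7 of 7 negative libraries. With the copy's reads added, Hspb1 stood above Hsf1 in 4 of 7 positive libraries (mean 8.96 RPKM) and below it in 5 of 7 negative ones (5.94 RPKM).

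**Figure D4:**
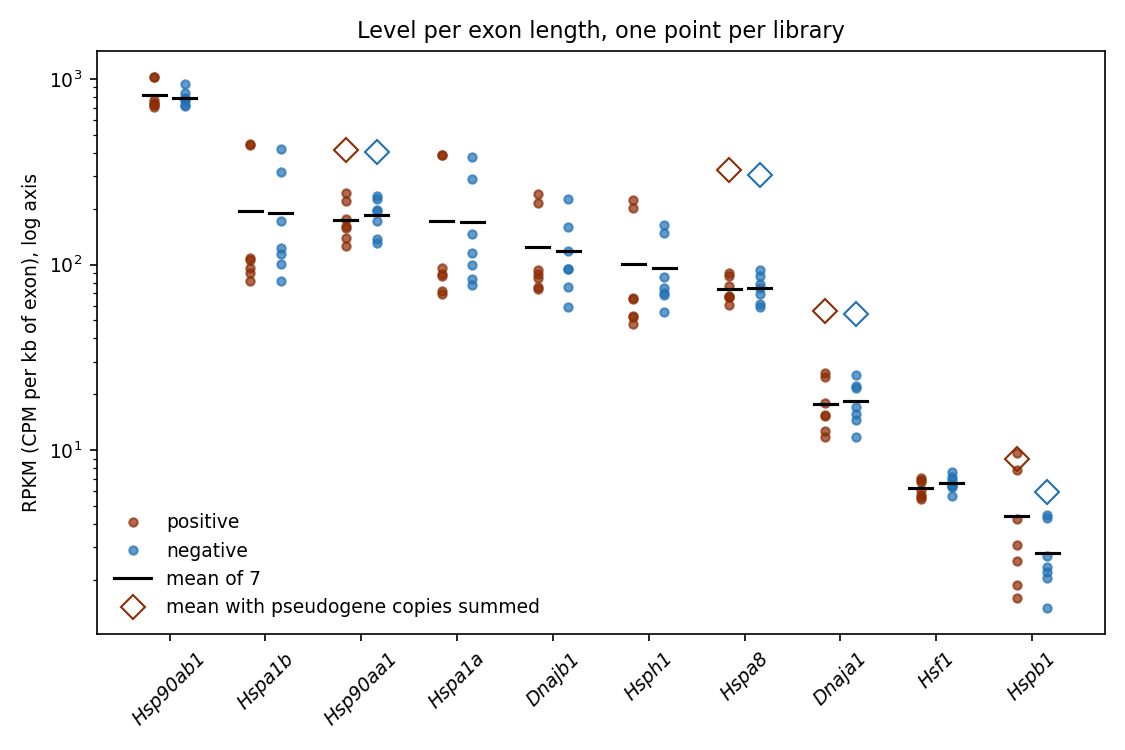
RPKM (CPM per kilobase of exon, log axis) of each gene, with 1 point per library, positive left of negative, and bars at the mean of 7. Open diamonds give the mean after adding the counts of processed pseudogene copies. With these added, the means of Hsp90aa1 and Hspa8 lie above those of Hspa1a and Hspa1b in both groups. By its own row the mean of Hsp90aa1 is already above that of Hspa1a.

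The wider chaperone network showed little difference between positive and negative cells. Of 98 other chaperone, co-chaperone and protein stress genes in 10 lists, 90 were tested and 1 was called between the groups, against the 6.40% higher and 1.63% lower of all genes. It was Hmox1, heme oxygenase, known also from macrophages that recycle iron, which rose to 592 CPM in positive cells, against 349 CPM in negative cells (log2 fold change 0.76 ± 0.15, adjusted p = 0.00336, higher in 7 of 7 pairs), and the part of macrophage RNA, whose summed markers are given above, was not tested. Positive 6 and 7 had the highest macrophage sums (874 and 612 CPM) and endothelial sums (1420 and 1360 CPM). Hmox1 was highest, at 806 CPM, in a positive library numbered 1 or 2, where macrophage sums were 135 and 141 CPM. In the libraries numbered 3 to 7 Hmox1 had at most 599 CPM. Without the libraries numbered 6 and 7 the Hmox1 difference was 0.75 and no longer called (adjusted p = 0.0652 by edgeR). That fit called 581 of all genes, against 1313 with all 14 libraries. Without the libraries numbered 1 and 2 the Hmox1 difference was 0.46 (adjusted p = 0.0360 by edgeR). No member was called of 14 HSP90 co-chaperones (median log2 fold change −0.04), 9 HSP70 co-chaperones (−0.02), 15 other J proteins (−0.01), 8 other HSP70 and HSP110 genes (−0.04), 3 small heat shock proteins (−0.01), 3 other heat shock factors and regulators (−0.09), 8 subunits of the cytosolic chaperonin TRiC (0.06), 10 mitochondrial chaperones and proteases (0.05) or 10 chaperones of the endoplasmic reticulum (0.10). The list that holds Hmox1, 10 genes of ubiquitin and protein stress, had a median of 0.03. The median of all genes tested was 0.00. When replicate number entered as a block, 9 of the 90 were called higher, against 11.8% of all genes, and 2 lower, against 7.77%, so neither share exceeded that of all genes. The 5 given here, named after their values were seen, are examples. Among the higher ones were the mitochondrial protease Lonp1 (323 CPM in positive and 260 CPM in negative cells; blocked adjusted p = 0.000609) and the mitochondrial HSP70 Hspa9 (989 and 812 CPM; 0.00127). The small heat shock protein Cryab was higher too (2.05 and 0.740 CPM; 0.00458). The J protein Dnajb4 was lower (86.5 and 102 CPM; 0.0196), as was the mitochondrial co-chaperonin Hspe1 (53.5 and 61.0 CPM; 0.0142). In the fit of group alone Cryab had a log2 fold change of 1.43 ± 0.43, higher in 7 of 7 pairs. It was just over the threshold there (adjusted p = 0.0503 by edgeR).

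Differences between the numbers reached the partners of HSP70 and HSP90. Of the 90 genes 29 were called for replicate number, against 21.0% of all genes, and for 9 the 4 highest libraries were those numbered 1 and 2, against 2.06%. For 8 others they were the 4 lowest, against 5.02%, so the list moved in both directions. These 9, named after their values were seen, were Hspa1l, Dnajb4, Bag3, St13, Stip1, Ahsa1, Chordc1, Cct7 and Hspd1. The exchange factor Bag3 had 112 to 168 CPM in the 4 libraries and 73.4 to 109 CPM in the other 10. Stip1, which bridges HSP70 and HSP90, had 211 to 248 CPM in the 4 and 138 to 173 CPM in the others. The HSP90 co-chaperone Chordc1 had 137 to 163 CPM, against 89.4 to 126 CPM, and the mitochondrial chaperonin Hspd1 had 178 to 197 CPM, against 127 to 145 CPM. Hspa1l, the HSP70 gene of testis, starts 546 bases from Hspa1a on the other strand, shares 232 of its 2423 50-base words with the inducible pair and had 3.63 to 6.00 CPM in the 4 libraries, against 0.257 to 1.00 CPM in the others. Of 10 endoplasmic reticulum chaperones 0 and of 10 mitochondrial genes 1 had those 4 libraries highest, although 5 of each list were called for replicate number.

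**Figure D5:**
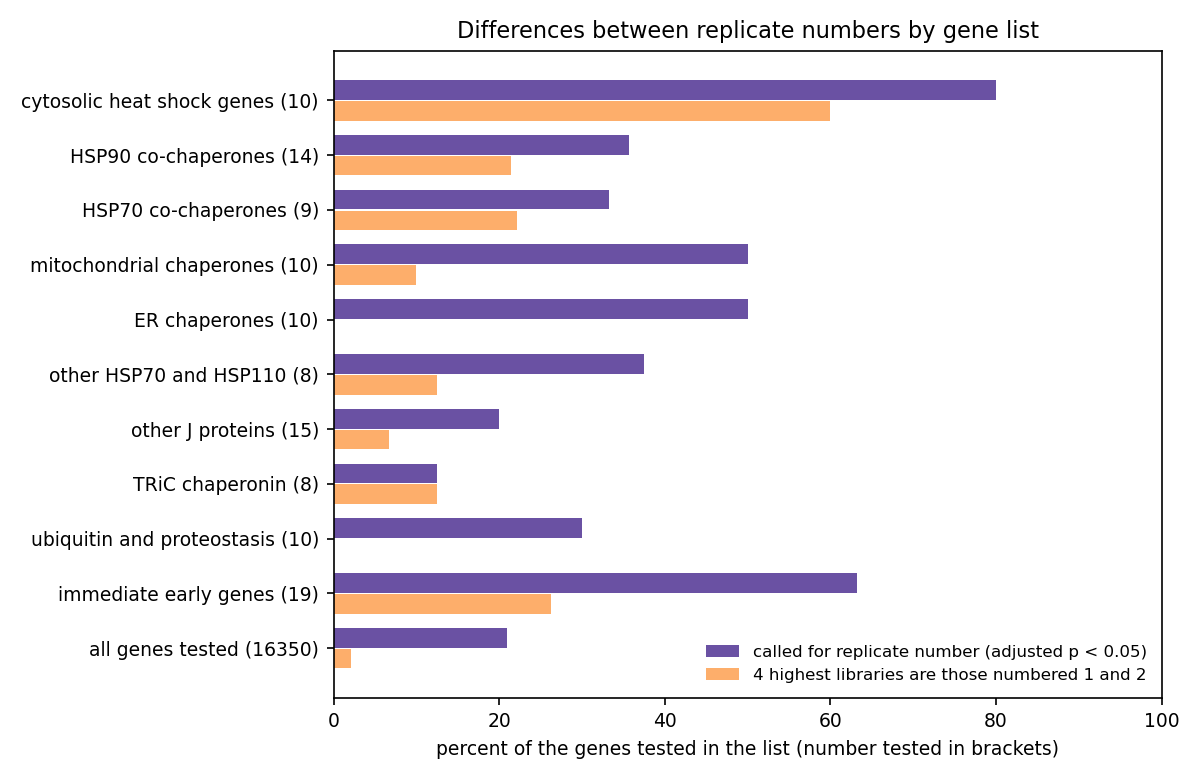
Percent of the tested genes of each list (number tested in brackets) that were called for replicate number (purple) and whose 4 highest libraries were those numbered 1 and 2 (orange). The cytosolic heat shock genes are at 80.0% and 60.0%, and all genes tested are at 21.0% and 2.06%. Cell type marker lists are not drawn. Of these, acinar markers are at 81.2% and 0.0%, macrophage markers at 72.2% and 0.0%, and the others at 0.0% to 47.1% and 0.0%.

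The genes whose pattern was most like that of the 10 over the 14 libraries were sought among genes of at least 3 in mean log2 CPM, by Pearson's r between deviations from the group mean and the mean standardised deviation of the 10 genes. The 8 most alike had r of 0.93 to 0.96 and Spearman's rho of 0.87 to 0.97, chosen for these values. They were the co-chaperones Bag3 and Dnajb4, the chaperonin Hspd1, Cacybp, a protein that binds the calcyclin protein, Slc5a3, an inositol transporter, Swt1, and the pseudogenes Gm7816 of Dnaja1 and Gm12346 of Hsp90aa1. The last pair share 68.0% and 75.4% of their 50-base words with a member. The likeness leans on the libraries numbered 1 and 2, and over the other 10 libraries r was 0.92 for Cacybp, 0.84 for Bag3, 0.79 for Dnajb4 and 0.76 for Hspd1, but 0.63 for Slc5a3 and 0.47 for Swt1. Among the 10 genes themselves r with the mean of all 10 was 0.77 to 0.97 except for Hsf1 (−0.29). Each gene is part of that mean, which raises its own r, so these values are not comparable with those of the 8. Without the libraries numbered 1 and 2, r with the mean of all 10 was 0.64 for Hsf1, so its sign turned, and r was lowest for Hspb1 (0.03).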

How the data were processed

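The authors deposited whole-number read counts for each gene in 14 libraries, made with Subread, GRCm38 and featureCounts per the submitters' processing notes. Versions, annotation, strand setting and the treatment of reads matching several genes are not given in the sources used here. Per the labels' protocols the RNA was polyadenylated and the kit directional.

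These counts went into edgeR 4.0.16 (R 4.3.3): filterByExpr left 16350 of 52459 genes, TMM factors scaled the libraries, and the robust quasi-likelihood F-test, with group as the only term, gave two-sided p-values with Benjamini-Hochberg adjustment over all genes tested, called below 0.05. Standard errors come from F and the fold change, and intervals from the fit's degrees of freedom. CPM divide by library sizes scaled with TMM, and a prior count of 2 was used for log2 CPM. Every 50-base word of GENCODE M21 transcripts was compared with those of the 10 genes, and pseudogenes with at least 20% of their words in a member and a row in the table were added to it in 1 alternative. The fits were tested on simulated data. DESeq2 1.42.0, a block, other factors and filters, and libraries left out were alternatives.

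The numbers come from the titles, and no source used here states that they mark pairs, so the main fit held group alone. The fit with the number as a block is given beside it. A pair here means the positive and the negative library of 1 number. Libraries of 1 number deviated together from their groups (r of 0.20 to 0.54 in 7 pairs, against a median of −0.13 across numbers). Deviations from a group's mean cancel out over its libraries. That pulls r across numbers down, so their median is not an independent baseline. These r cannot tell pairs from a batch that spans several numbers. If the numbers do mark pairs, the group-only intervals include spread that both groups share. The members and lists were chosen with earlier results of these data known. All 10 members are named. Of other lists the called genes with the largest change are named (at most 4), with others as stated, and of marker lists at most 2 genes.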

Additional observations from a re-analysis of the deposited data

How the results depend on the processing

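Calls between positive and negative cells were recomputed under 8 alternatives of scaling, test, filter and libraries, with each library left out in turn, and, chosen after the data were seen, without the libraries numbered 1 and 2 and with pseudogene copies summed. The fit with a replicate block called 3200 genes (1930 higher, 1270 lower), 11 of the chaperone list genes and 1 of the 10 heat shock genes, Hspb1. The block changed no other member's call. DESeq2 called 2079 genes (1602 higher, 477 lower) and 4 list genes. Without a low-count filter 2 list genes were called. Without the libraries numbered 6 and 7, 581 genes were called (536 higher, 45 lower), and without those numbered 1 and 2, 899 genes (696 higher).

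Leaving out 1 library gave 965 to 1883 genes called (825 to 1267 higher, 140 to 616 lower), 1 to 4 list genes and 0 of the 10 heat shock genes. Log2 fold changes then spanned −0.37 to 0.31 for Hspa1a, −0.31 to 0.35 for Hspa1b, −0.25 to 0.25 for Hsph1, −0.19 to 0.28 for Dnajb1, −0.18 to 0.031 for Dnaja1, −0.035 to 0.070 for Hsp90ab1, −0.091 to 0.019 for Hspa8 and 0.33 (without positive 2) to 0.82 for Hspb1. Of these 8 genes all but Hspb1 changed sign. Hspa1a was −0.16 with the block, −0.010 with DESeq2, −0.0072 with RLE and −0.011 with upper-quartile factors, −0.029 without a filter, −0.016 with a filter of 1 CPM in 7 libraries and −0.34 without the libraries numbered 1 and 2. Hspa1b and Hsph1 were −0.10 each with the block and −0.29 and −0.32 without those libraries, and Dnajb1 and Hsp90ab1 −0.097 and −0.039 without them. With copies summed Hspa8, Dnaja1 and Hsp90aa1 were 0.093, 0.066 and 0.029.

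For replicate number 604 genes and 2 of the 10 were called without the libraries numbered 1 and 2, and leaving out 1 library gave 1812 to 4220 genes and 6 to 9 of the 10. Depth limits Hspb1, with 22 to 213 counts in a library. The intervals cover the spread between 7 libraries a group, and the causes of these changes were not tested.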

Other observations

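Immediate early genes, transcription factors and feedback regulators switched on within minutes of a stimulus, were tested as a further list of 19. Between positive and negative cells 1 was called, Ier3, which had 26.8 CPM in positive and 9.24 CPM in negative cells (log2 fold change 1.53 ± 0.22, SE, adjusted p = 0.000345 by edgeR, higher in 7 of 7 pairs), so the share called did not exceed the 8.03% of all genes. The median of the list was −0.01. These values come from the fit of group alone. In the blocked fit 2 of the 19 were called higher, against 11.8% of all genes, and 1 lower, against 7.77%. Higher were Ier3 (blocked adjusted p = 0.00559 by edgeR) and Fosl2 (286 CPM in positive and 244 CPM in negative cells, 0.0241). Fosb was lower (362 and 649 CPM, 0.000814), with the positive library higher in 0 of 7 pairs. Its group-only log2 fold change was −0.84 (adjusted p = 0.366). For replicate number 12 of the 19 were called, against 21.0% of all genes, and 5 had the libraries numbered 1 and 2 as their 4 highest, against 2.06%. These 5, named after their values were seen, were Egr2, Atf3, Ier2, Btg2 and Zfp36. The stress factor Atf3 had 194 to 244 CPM in those 4 libraries and 82.6 to 178 CPM in the other 10, and Btg2, an antiproliferative gene, 552 to 1000 CPM, against 230 to 516 CPM. The 19 genes summed to 7260 and 5660 CPM in positive 1 and 2 and to 9340 and 6730 CPM in negative 1 and 2, against 4090 to 5550 CPM in the other positive and 3600 to 6820 CPM in the other negative libraries, so unlike Hspa1a the sums overlapped.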
